A study of Homo sapiens with 9 samples.

Results

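The lymphotoxin system was described here through 6 genes, namely the ligand genes LTA, LTB and TNFSF14 and the receptor genes LTBR, TNFRSF1A and TNFRSF14. They were chosen by gene symbol, and each was read by 1 transcript cluster of the human Clariom S array, among 17687 genes with a symbol. The samples were L-1236 cells, a line established from Hodgkin lymphoma, in 3 groups of 3 arrays. Clone g2_1 carried the lentiCRIPSPR v2 vector, which delivers Cas9, and its guide was aimed at LTA's second exon. In clone g3_4 the same vector carried a guide aimed at the fourth exon. The control cells, labelled v2 and titled wild type, carried the vector, and no guide is named for them. Each knockout group is 1 clone, grown with L-1236 conditioned medium until its last 72 h, which were in normal medium. For control cells, clonal origin and earlier conditioned medium are not stated clearly. Separate cultures are not named for the arrays of a group, and p-values then reflect only how these samples vary, possibly for technical reasons.

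Lymphotoxins are cytokines of the TNF superfamily. Lymphotoxin alpha is secreted as a homotrimer that binds the TNF receptors, and it also joins the membrane protein lymphotoxin beta in a heterotrimer that binds the lymphotoxin beta receptor. LIGHT, the product of TNFSF14, binds the lymphotoxin beta receptor and HVEM, the product of TNFRSF14, which lymphotoxin alpha can bind as well. Signals from these receptors activate NF-kB, a family of transcription factors, and shape lymph nodes and other lymphoid tissue.

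LTA was the only one of the 6 genes whose RNA fell in both clones, while no gene of the 6 rose in either clone. TNFRSF14 was lower by a smaller amount and passed the test in clone g2_1 only. The other genes, LTB, TNFSF14, LTBR and TNFRSF1A, passed in neither clone. Tests were made with limma on deposited log2 signals, with p-values adjusted by the Benjamini-Hochberg method over 20893 transcript clusters, and a gene was called at an adjusted p under 0.05. In g2_1, 2 of the 6 genes were lower, where 8.06% of all transcript clusters were lower and 6.19% higher. In g3_4, 1 of the 6 was lower, where 8.16% of all transcript clusters were lower and 6.12% higher. With the clones averaged, LTA and TNFRSF14 were lower and 0 of the 6 higher, where 18.0% of all transcript clusters were called, 9.83% lower and 8.13% higher. Without regard to direction, 14.3% were called in each clone and 11.4% in both clones with the same sign. The median log2 fold change of the 6 genes was -0.28 in g2_1 and -0.12 in g3_4, against 0.03 in both clones over all genes with a symbol. These counts and medians include LTA, the targeted gene. Of the other genes, TNFSF14 and TNFRSF14 had negative log2 fold changes in both clones, and LTB and TNFRSF1A positive ones. LTBR had -0.05 in g2_1 and 0.22 in g3_4. Both comparisons use the same 3 control arrays.

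Control array 1 stood apart from the other control arrays. Its value differed by at least 1 log2 unit from their mean in 541 transcript clusters, against 91 for each of the other control arrays and 1 to 36 for the clone arrays. Values without it are given for some, not all, of the genes where it moved a called value by over 1.5 times or ended a call. The RNA integrity number was 10 for the arrays numbered 1 and 9.5 to 9.6 for the rest. Of 8 markers of Hodgkin and Reed-Sternberg cells, TNFRSF8, the gene of CD30, had values of 10.91 to 12.01 on the 9 arrays, and IRF4, a transcription factor gene of these cells, lay between 11.76 and 12.05. By group, FSCN1 averaged 10.57 to 10.96, TRAF1 8.62 to 9.58 and FUT4 7.13 to 7.59. CCL17 averaged 5.86 in g2_1, 5.80 in g3_4 and 6.78 in control cells. FSCN1, FUT4, CCL22 and PAX5 also averaged lower in the clones than in control cells. Of 5 T cell markers, CD3D, CD3G and CD8A averaged under the first quartile of all values (4.64) in every group, CD3E averaged 4.71 to 4.88, and CD2 had a log2 fold change of 1.58 in g2_1 and 1.53 in g3_4. Of 6 monocyte and macrophage markers, LYZ and FCGR3A averaged under that quartile, CD14 and CD163 averaged 5.23 to 5.35, and CSF1R averaged 7.30 to 7.56. CD68 averaged 6.38 in g2_1, 6.48 in g3_4 and 5.75 in control cells. All its clone arrays lay above all control arrays, as for 9.70% of all transcript clusters. The part of these markers in the results was not tested.

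**Figure D1:**
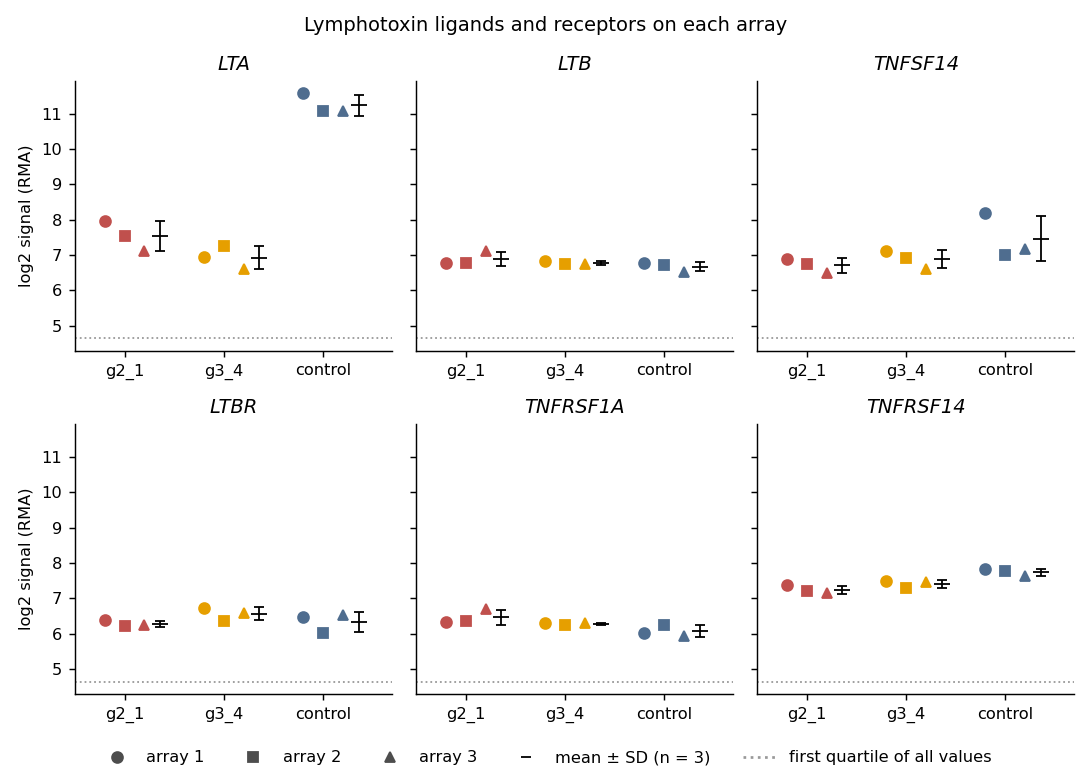
Log2 signal of each of the 6 genes (y axis) on every array of clone g2_1, clone g3_4 and control cells (x axis), with the mean and SD of 3 arrays beside the points and a dotted line at the first quartile of all values (4.64). LTA lies between 6.61 and 7.97 on the clone arrays and between 11.07 and 11.58 on the control arrays, while the groups of the other genes lie close together and TNFSF14 is highest on control array 1.

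Among the ligands, LTA was examined first because it is the targeted gene. Its log2 signal was 7.97, 7.53 and 7.11 on the g2_1 arrays, 6.94, 7.25 and 6.61 on the g3_4 arrays, and 11.58, 11.07 and 11.08 on the control arrays. LTA averaged 7.54 ± 0.43 in g2_1, 6.93 ± 0.32 in g3_4 and 11.24 ± 0.29 in control cells (SD, n = 3 each). All 6 clone arrays lay below all 3 control arrays, which was also the case for 10.6% of all transcript clusters, while 9.70% had all clone arrays above and 20.4% either. LTA was thus 13.1-fold lower in g2_1 (log2 fold change -3.71, SE 0.23, adjusted p = 1.5e-06) and 19.8-fold lower in g3_4 (-4.31, SE 0.23, adjusted p = 4.2e-07), both in limma. Without control array 1 the log2 fold changes were -3.54 in g2_1 and -4.14 in g3_4. Its signal on the clone arrays stayed above the first quartile of all values. An edited transcript need not be lost, and which part of LTA the probes read is not known here.

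LTB encodes the membrane-bound partner of lymphotoxin alpha and is the nearest measured gene on one side of LTA. The signal of LTB was 6.78, 6.77 and 7.11 in g2_1, 6.83, 6.75 and 6.74 in g3_4, and 6.78, 6.71 and 6.53 in control cells. The groups overlapped. The log2 fold change was 0.21 in g2_1 (95% interval -0.05 to 0.47, adjusted p = 0.297 in limma) and 0.10 in g3_4 (-0.16 to 0.36, adjusted p = 0.672 in limma). The intervals cover small changes in either direction and leave out the 13.1-fold and 19.8-fold differences seen for LTA.

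TNFSF14 encodes LIGHT, a membrane-bound and shed ligand of the lymphotoxin beta receptor and of HVEM. Signals of TNFSF14 were 6.90, 6.75 and 6.48 in g2_1, 7.11, 6.93 and 6.62 in g3_4, and 8.19, 7.01 and 7.17 in control cells. The g2_1 arrays lay below the control arrays, but g3_4 array 1 lay above control array 2. Neither clone passed the test, with a log2 fold change of -0.75 in g2_1 (95% interval -1.34 to -0.16, adjusted p = 0.0964 in limma) and of -0.57 in g3_4 (-1.16 to 0.02, adjusted p = 0.213 in limma). The size of both rested on control array 1, without which the values were -0.38 (adjusted p = 0.160 in limma) and -0.20 (adjusted p = 0.489 in limma). Without control array 2, the lowest of that group, g2_1 was lower by 0.97 and passed (adjusted p = 0.0466 in limma).

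Among the receptors, TNFRSF14 was the one that passed the test in a clone. It encodes HVEM, which on lymphocytes binds LIGHT and lymphotoxin alpha as well as the inhibitory proteins BTLA and CD160. Its log2 signal was 7.38, 7.20 and 7.15 in g2_1, 7.49, 7.28 and 7.47 in g3_4, and 7.83, 7.77 and 7.63 in control cells. All 6 clone arrays lay below all control arrays, as for 10.6% of all transcript clusters. In g2_1 it was 1.41-fold lower (log2 fold change -0.50, SE 0.11, adjusted p = 0.00958 in limma). In g3_4 the log2 fold change was -0.33 (SE 0.11, 95% interval -0.57 to -0.09, adjusted p = 0.0677 in limma) and did not pass. The clones did not differ from each other by the test, with a difference of -0.17 for g2_1 minus g3_4 (95% interval -0.41 to 0.07, adjusted p = 0.997 in limma). Its call in g2_1 was kept without control array 1 (-0.46, adjusted p = 0.0216 in limma).

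LTBR encodes the lymphotoxin beta receptor, which signals through the non-canonical NF-kB pathway. Its log2 signal was 6.39, 6.22 and 6.24 in g2_1, 6.72, 6.37 and 6.58 in g3_4, and 6.46, 6.01 and 6.53 in control cells, so that all groups overlapped. The log2 fold change was -0.05 in g2_1 (95% interval -0.37 to 0.27, adjusted p = 0.886 in limma) and 0.22 in g3_4 (-0.10 to 0.55, adjusted p = 0.401 in limma). The sign in g2_1 turned to positive when arrays were centred on their median (0.063).

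TNFRSF1A encodes TNF receptor 1, a death domain receptor of TNF and of the lymphotoxin alpha homotrimer. Its log2 signal was 6.32, 6.35 and 6.71 in g2_1, 6.29, 6.24 and 6.30 in g3_4, and 6.03, 6.25 and 5.93 in control cells. All g2_1 arrays lay above the control arrays, and g3_4 array 2 lay just below control array 2. The log2 fold change was 0.39 in g2_1 (95% interval 0.11 to 0.67, adjusted p = 0.0678 in limma) and 0.21 in g3_4 (-0.07 to 0.49, adjusted p = 0.360 in limma), and neither passed. Centring each array moved the overall median change in g2_1 to 0.147 log2 units, against 0.033 as deposited, and after centring TNFRSF1A passed in g2_1 (0.50, adjusted p = 0.0185 in limma). It also passed in g2_1 without control array 2, the highest of that group, at 0.48 (adjusted p = 0.0461 in limma).

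**Figure D2:**
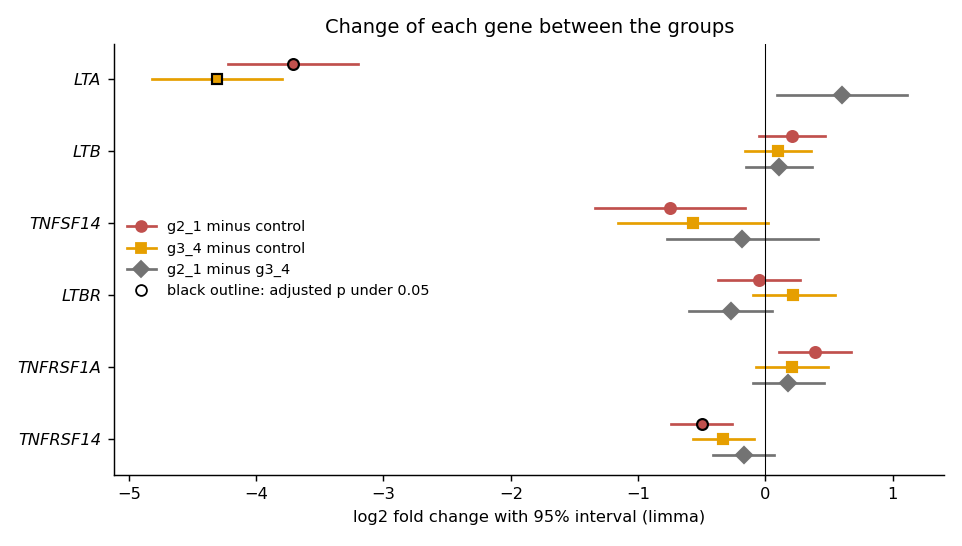
Log2 fold change (x axis, limma, with 95% interval) of each of the 6 genes for clone g2_1 minus control, clone g3_4 minus control, and g2_1 minus g3_4, with a black outline where the adjusted p is under 0.05. LTA is outlined in both clones and TNFRSF14 in g2_1 only, and no gene is outlined for g2_1 minus g3_4.

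The order of the 3 groups differed between the genes. LTA was lowest in g3_4 and highest in control cells, and its clone arrays overlapped, with a difference of 0.60 for g2_1 minus g3_4 (95% interval 0.09 to 1.11, adjusted p = 0.985 in limma). TNFSF14 and TNFRSF14 were lowest in g2_1 and highest in control cells. LTB and TNFRSF1A were highest in g2_1 and lowest in control cells, while LTBR was highest in g3_4 and lowest in g2_1. None of the 6 genes was called between the clones, where 11 transcript clusters were called in all (0.0526%, with 0.0191% higher and 0.0335% lower in g2_1). Arrays of the same number deviated alike in both clones, but the labels do not state that the number pairs samples. With the number as a block 27 were called between the clones.

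The promoters are shown for LTA, which fell in both clones, for its measured neighbour LTB, which passed in neither, and for TNFRSF14, which passed in g2_1. All 6 genes have windows in the table used. Sequences are from RefSeq (GRCh38.p14), cover 250 bases before to 50 after an annotated start, and run 5′ to 3′ on the gene's own strand. Capitals mark matches to the NF-kB consensus on either strand and, in LTA, the letters TATAAA. The windows are chr6:31572039-31572338 on the plus strand for LTA, chr6:31582376-31582675 on the minus strand for LTB, and chr1:2556121-2556420 on the plus strand for TNFRSF14.
LTA: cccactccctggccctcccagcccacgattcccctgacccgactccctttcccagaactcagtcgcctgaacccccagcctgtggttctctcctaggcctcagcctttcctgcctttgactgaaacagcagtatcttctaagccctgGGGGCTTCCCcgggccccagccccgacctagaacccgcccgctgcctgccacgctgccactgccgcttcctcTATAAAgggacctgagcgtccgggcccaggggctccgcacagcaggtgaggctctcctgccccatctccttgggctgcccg
LTB: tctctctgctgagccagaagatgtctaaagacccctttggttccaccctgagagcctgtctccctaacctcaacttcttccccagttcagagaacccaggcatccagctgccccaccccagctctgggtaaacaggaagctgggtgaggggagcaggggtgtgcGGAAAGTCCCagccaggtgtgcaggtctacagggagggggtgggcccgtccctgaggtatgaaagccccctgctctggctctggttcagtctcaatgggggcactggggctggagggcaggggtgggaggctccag
TNFRSF14: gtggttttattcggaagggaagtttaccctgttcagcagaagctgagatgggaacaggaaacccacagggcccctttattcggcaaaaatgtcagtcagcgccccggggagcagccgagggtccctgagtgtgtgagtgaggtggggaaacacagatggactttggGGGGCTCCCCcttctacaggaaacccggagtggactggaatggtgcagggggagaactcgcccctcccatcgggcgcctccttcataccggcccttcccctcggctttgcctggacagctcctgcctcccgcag
The window of LTA held the NF-kB consensus at bases -103 to -94 and TATAAA at bases -31 to -26, counted from the annotated start. In LTB the consensus stood at bases -86 to -77 on the opposite strand, and in TNFRSF14 at bases -84 to -75. Both windows of TNFSF14 held it too, and those of LTBR and TNFRSF1A did not. A second window of LTA, at an earlier start, held neither motif. Of all 35116 windows of this length, 5.91% held the NF-kB consensus and 11.5% held TATAAA on either strand. Such a match is a description of the sequence and no evidence of binding. LTA, LTB, TNFSF14 and TNFRSF14 share the match, and 1 of these genes passed in both clones.

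The 6 genes lie at 4 places in the genome. LTA and LTB lie on chromosome 6 and are neighbours among the measured genes, which do not include TNF. TNFRSF1A and LTBR lie close together on chromosome 12 with SCNN1A between them among the measured genes. TNFSF14 lies on chromosome 19 beside CD70, and TNFRSF14 lies on chromosome 1. For each gene the 10 nearest measured genes on either side were examined, and a neighbour counts as risen or fallen where it passed in both clones with the same sign, as 4.48% of all transcript clusters did upward and 6.97% downward.

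Around LTA, 3 of 20 neighbours fell and 0 rose, with a median log2 fold change of -0.02 in the clones averaged against 0.03 over all genes with a symbol. The nearest measured genes, NFKBIL1 on one side and LTB on the other, passed in neither clone, and NFKBIL1 had -0.24 in g2_1 and -0.08 in g3_4. The fallen genes were farther off and were named after their values were seen. ABHD16A had a log2 fold change of -1.33 in g2_1 and -1.32 in g3_4. LY6G5C had -1.57 in g2_1 and -1.46 in g3_4. AIF1 had -0.86 and -0.85 (-0.58 and -0.57 without control array 1), and its call was lost without any 1 of 5 clone arrays (adjusted p = 0.0512 to 0.0763 in limma), namely all 3 of g2_1 and arrays 1 and 2 of g3_4. LST1, next to LTB, was at 6.88 to 7.05 on the 9 arrays.

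Around LTBR, 1 of 20 neighbours rose and 1 fell. The fallen gene was CD27, the nearest measured gene on one side of LTBR and the receptor of the product of CD70. The risen gene, named after its values were seen, was CD9, a tetraspanin, with a log2 fold change of 1.30 in g2_1 and 1.31 in g3_4. Its control arrays were at 7.83 (array 1), 9.20 and 9.28, and without array 1 the values were 0.83 in g2_1 and 0.84 in g3_4 and passed in both. Its call was lost without g2_1 array 3 (adjusted p = 0.0564 in limma) or g3_4 array 2 (adjusted p = 0.0577 in limma). SCNN1A and PLEKHG6, the genes on either side of TNFRSF1A, passed in neither clone.

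Around TNFSF14, 3 of 20 neighbours rose and 1 fell, and around TNFRSF14, 1 rose and 0 fell. The antisense gene TNFRSF14-AS1 had a log2 fold change of -0.29 in g2_1 (adjusted p = 0.357 in limma) and of -0.34 in g3_4 (adjusted p = 0.255 in limma), and did not pass. PRXL2B, on the other side of TNFRSF14, was lower by test in g3_4 (-0.67, adjusted p = 0.0128 in limma) and not in g2_1 (-0.37, adjusted p = 0.155 in limma). Its call was lost without g3_4 array 1 (adjusted p = 0.0520 in limma) or array 2 (adjusted p = 0.0506 in limma). The complement gene C3, next to TNFSF14, passed in neither clone.

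**Figure D3:**
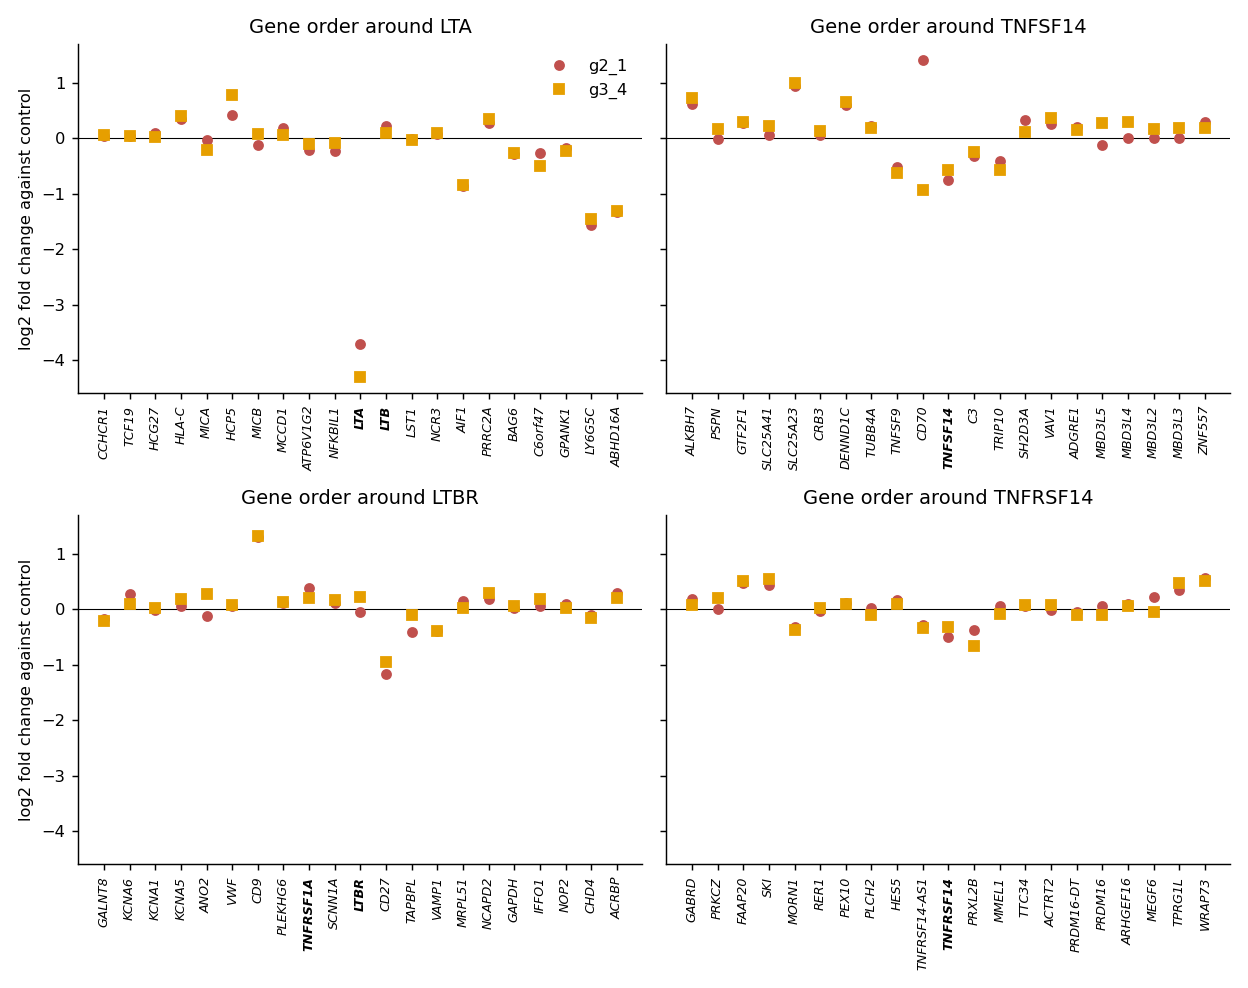
Log2 fold change against control (y axis) in clone g2_1 and clone g3_4 for LTA, TNFSF14, LTBR and TNFRSF14 and the 10 nearest measured genes on either side of each, in genome order (x axis, bold for the 6 genes of the lymphotoxin system). LTA lies far below its nearest neighbours, and CD70, beside TNFSF14, is at 1.41 in g2_1 and -0.94 in g3_4.

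Of 5 genes whose products bind members of the system, BTLA and CD160 were measured, both of which encode proteins that bind HVEM. The other genes of that list, among them TNF, were not analysed here. CD160 was 10.49, 9.88 and 10.20 in g2_1, 10.58, 10.04 and 10.14 in g3_4, and 6.85, 8.86 and 9.04 in control cells. All its clone arrays lay above all control arrays, as for 9.70% of all transcript clusters. CD160 rose in both clones, by 1.94 in g2_1 (adjusted p = 0.0166 in limma) and by 2.003 in g3_4 (adjusted p = 0.0140 in limma). Control array 1 was the lowest, and without it the rise was 1.24 in g2_1 and 1.30 in g3_4 and passed in both. The call was lost without g2_1 array 1 (adjusted p = 0.0662 in limma), g2_1 array 3 (adjusted p = 0.0554 in limma) or g3_4 array 1 (adjusted p = 0.0591 in limma). BTLA lay between 3.93 and 4.33 on all 9 arrays, under the first quartile of all values.

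Of 32 genes that carry signals from these receptors, 28 were measured, and 2 rose and 4 fell in both clones, where 4.48% of all transcript clusters rose and 6.97% fell. After each array was centred on its median, 6 rose and 3 fell, with CYLD, NFKBIB, TAB2 and TRAF1 added to the risen. With the replicate block 5 rose and 5 fell. In g2_1 3 were higher and 7 lower, where 6.19% of all were higher and 8.06% lower, and in g3_4 6 were higher and 4 lower, where 6.12% were higher and 8.16% lower. The median log2 fold change of the 28 was -0.10 in g2_1 and 0.03 in g3_4, against 0.03 in both clones over all genes with a symbol. REL, which encodes the NF-kB subunit c-Rel, had a log2 fold change of -1.88 in g2_1 and -1.997 in g3_4. NFKB1, the gene of the p50 subunit, had -0.87 and -0.97 in the same clones. RBCK1, which encodes a part of the linear ubiquitin ligase, had -0.67 and -0.76. These 3 genes passed in both clones under every alternative run.

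NFKBIA, which encodes the NF-kB inhibitor IkB alpha, fell by 0.46 in g2_1 and by 0.49 in g3_4. That call was lost without any 1 of the g2_1 arrays, control array 1, control array 3, or g3_4 array 1 or 2 (adjusted p of the clone that lost it 0.0567 to 0.133 in limma). NFKBIA also passed in neither clone after median centring, with only the groups compared in the fit, or without the arrays numbered 1 (adjusted p = 0.0551 to 0.150 in limma). Without control array 1, NFKBIA had -0.35 in g2_1 (adjusted p = 0.0909 in limma) and -0.38 in g3_4 (adjusted p = 0.0697 in limma). IKBKB, the gene of the kinase IKK beta, rose by 0.77 in g2_1 and by 0.70 in g3_4. Its call was lost without g2_1 array 2 or 3, g3_4 array 2 or 3, or control array 1 (adjusted p = 0.0705 to 0.126 in limma). Without control array 1, IKBKB had 0.60 in g2_1 (adjusted p = 0.044 in limma) and 0.53 in g3_4 (adjusted p = 0.0724 in limma). CASP8, which encodes the protease caspase-8 of death receptor signalling, rose by 0.72 and 0.79 (0.48 and 0.56 without control array 1), and its call was lost without any 1 of the g2_1 arrays (adjusted p = 0.0502 to 0.0622 in limma). So without g2_1 array 2 or 3 the list held 0 rises and 3 falls.

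Values of 5 further genes of the list, named after they were seen, follow. MAP3K14, the gene of the NF-kB inducing kinase NIK, had a log2 fold change of 0.09 in g2_1 and 0.07 in g3_4. TRAF3, which holds that kinase low in resting cells, had -0.07 and 0.11. RELB, a subunit of the non-canonical pathway, had -0.25 in both clones, and its partner gene NFKB2 was at -0.70 in g2_1 (adjusted p = 0.0304 in limma) and -0.59 in g3_4 (adjusted p = 0.0657 in limma). NFKB2 fell in both clones with a trend in the variance prior and with the replicate block. TRAF1, an NF-kB target and adaptor, was higher in g2_1 by test (0.96, adjusted p = 7.8e-04 in limma) and at 0.44 in g3_4 (adjusted p = 0.0558 in limma). TRAF1 passed in both clones after median centring, with rows under the median level left out, with array weights, with the replicate block, without the arrays numbered 1, and without g3_4 array 1 or control array 2.

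**Figure D4:**
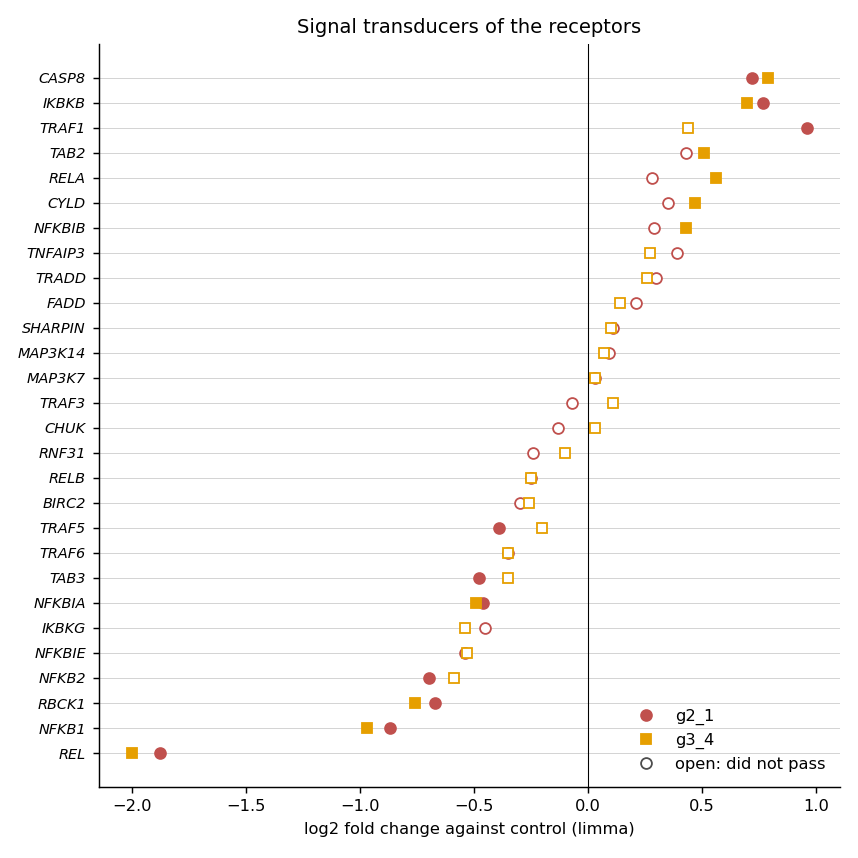
Log2 fold change against control (x axis, limma) of the 28 measured genes that carry signals from the receptors (y axis) in clone g2_1 and clone g3_4, filled where the adjusted p is under 0.05. REL has the lowest values (-1.88 in g2_1 and -1.997 in g3_4), and most other genes lie within 1 log2 unit of 0.

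Among 14 genes known to be induced through the lymphotoxin beta receptor in stromal cells, 4 fell and 0 rose in both clones, where 6.97% of all transcript clusters fell and 4.48% rose. The list was chosen with earlier results of these data known. CCL2, a chemokine that attracts monocytes, was 5.91, 4.87 and 5.10 in g2_1, 4.88, 4.77 and 4.87 in g3_4, and 12.33, 11.54 and 11.64 in control cells. CXCL10, an interferon-induced chemokine, was at 4.29 to 4.73 in g2_1, 4.30 to 4.99 in g3_4, and 9.35 to 10.92 in control cells. VCAM1, an adhesion molecule, fell by 3.05 in g2_1 and by 2.93 in g3_4 on the log2 scale. CCL5, a chemokine of T cells, had log2 fold changes of -0.76 and -0.98. CXCL13, CCL19, CCL21 and CXCL12, the lymphoid chemokines of the list, passed in neither clone, with log2 fold changes between -0.17 and 0.12. CXCL13 lay between 3.86 and 4.67 on the 9 arrays, from well under the first quartile of all values (4.64) to just above it. The median of the 14 genes was -0.09 in g2_1 and -0.06 in g3_4.

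The wider family is given by counts, where 4.48% of all transcript clusters rose and 6.97% fell in both clones. Of 13 other measured ligands of the TNF superfamily, TNFSF10, the gene of TRAIL, rose (1.01 in g2_1 and 0.57 in g3_4) and 0 fell in both clones. Its call was lost without g3_4 array 2 (adjusted p = 0.0664 in limma) or array 3 (adjusted p = 0.0528 in limma). Of 22 other measured receptors, 3 rose, namely TNFRSF10D, TNFRSF8 and TNFRSF10A, and 2 fell, namely CD40 and CD27. CD40 had a log2 fold change of -4.70 in g2_1 and -4.85 in g3_4. TNFRSF10A, a receptor of TRAIL, rose by 0.49 and 0.46. The call of TNFRSF10D was lost without any 1 of the g2_1 arrays (adjusted p = 0.0555 to 0.0804 in limma), and that of CD27 without any 1 of the g3_4 arrays (adjusted p = 0.0548 to 0.0911 in limma). Without control array 1, CD27 had -0.82 in g2_1 and -0.62 in g3_4 and passed in both. Of 6 genes of receptor shedding, which releases TNF receptors from the cell surface, 0 passed in both clones. ADAM17, the protease that sheds TNF receptor 1, had -0.40 in g2_1 and -0.07 in g3_4. ADAM10 was higher in g2_1 (0.36, adjusted p = 0.0393 in limma) and at 0.32 in g3_4 (adjusted p = 0.0614 in limma). ADAM10 passed in both clones after median centring, with rows under the median level left out, with the trend in the variance prior, with array weights, with the replicate block and without control array 3. ERAP1 did so after centring.

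The genes whose pattern was most like that of LTA were found by the root mean square difference of values over the 9 arrays, after each of the 17687 genes was centred on its own mean. They were SLC35F3 (0.237 log2 units), PLEKHA1 (0.242), SLC5A11 (0.299), BCL2L11 (0.302) and ALCAM (0.302), while LTA itself departed from its own mean by 1.93. ALCAM encodes an adhesion molecule and BCL2L11 the pro-apoptotic protein BIM. All 5 fell in both clones, with log2 fold changes of -4.12 to -3.74 in g2_1 and -4.35 to -3.92 in g3_4. Their clone arrays lay between 3.71 and 5.48, about the first quartile of all values. For TNFSF14, the other gene that spanned over 1 log2 unit, the nearest were HAUS1 (0.101), EHMT2 (0.117) and PPP1R26 (0.140). All 3 were highest on control array 1, as TNFSF14 was, at 7.62, 9.80 and 6.70. Unlike TNFSF14, EHMT2 (-0.83, adjusted p = 0.0371 in limma) and PPP1R26 (-0.75, adjusted p = 0.0347 in limma) were lower by test in g2_1. Without control array 1 these values were -0.48 (adjusted p = 0.0101 in limma) and -0.53 (adjusted p = 0.073 in limma). HAUS1 passed in neither clone, and none of these genes passed in g3_4. Both sets were picked for likeness over these same arrays, so the shared falls and the shared high array follow from the choice.

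**Figure D5:**
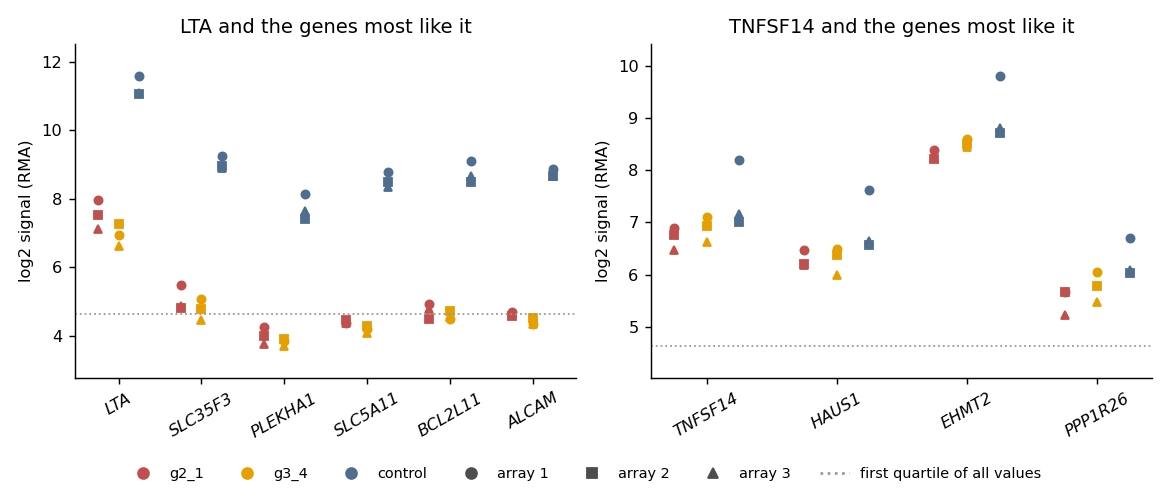
Log2 signal (y axis) on every array of clone g2_1, clone g3_4 and control cells for LTA with the 5 genes most like it (left) and TNFSF14 with the 3 genes most like it (right), with a dotted line at the first quartile of all values (4.64). The clone arrays of LTA lie above that line, those of the 5 genes around it, and control array 1 is the highest control array of each gene on the right.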

How the data were processed

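RNA of 9 L-1236 samples was hybridised to human Clariom S arrays, after 250 ng of each was labelled per the labels. The submitters' processing notes name RMA and Transcriptome Analysis Console 4.0, and the values the authors deposited are on a log2 scale. RMA draws arrays towards 1 distribution, so a shift of most genes can be hidden, and folds near the floor are compressed. The medians of the tested clusters still differed, at 6.27 to 6.29 on the control arrays and 6.15 to 6.19 on the clone arrays. Detection calls, probe positions and the genome build are not given in the sources used here. For arrays, their number limits the precision.

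Tests covered 20893 transcript clusters, and 555 unmapped rows were left out. Of the tested clusters, 17705 had 1 symbol, 0 had several and 3188 were unnamed here. Gene IDs matched RefSeq (GRCh38.p14), used for names, gene order and promoters. The 6 genes and the gene lists were chosen with earlier results of these data known. Named are all 6 genes, up to 4 risen and 4 fallen genes per list by size, nearest neighbours and most like genes. Genes outside this were chosen after their values were seen. Values were fitted in limma 3.58.1 (R 4.3.3; lmFit, eBayes, 1 coefficient per group, two-sided), and the fit was tested on simulated data. SDs are over 3 arrays.

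Deviations of arrays with the same number correlated at 0.435, 0.191 and 0.310 between the clones, where arrays of unlike number reached 0.0775. The labels do not state that the number pairs samples. Same-number arrays correlated at 0.285, 0.0426 and 0.183 between g2_1 and control, and at 0.298, 0.0565 and 0.257 between g3_4 and control. Against control, arrays of unlike number reached 0.142 with g2_1 and 0.121 with g3_4, above the same-number value for number 2 only. Whether the number pairs samples against control is thus not settled, and the replicate block was run as an alternative. No 2 arrays held identical values.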

Additional observations from a re-analysis of the deposited data

Results flagged for a closer look

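CD70, the neighbour of TNFSF14 and the ligand of CD27, differed between the clones, by 2.35 on the log2 scale for g2_1 minus g3_4 (SE 0.26, adjusted p = 0.0115 in limma). Its log2 signal was 11.30, 11.53 and 11.46 in g2_1, 8.41, 9.40 and 9.43 in g3_4, and 9.61, 10.37 and 10.08 in control cells. It was thus higher than control in g2_1 (1.41, adjusted p = 0.00431 in limma) and lower in g3_4 (-0.94, adjusted p = 0.0358 in limma). The call between the clones was lost without g2_1 array 2 (2.30, adjusted p = 0.135 in limma) or g2_1 array 3 (2.34, adjusted p = 0.0743 in limma), and was kept under the other 17 of 19 alternatives. The fall in g3_4 was kept under 12 of 19 (adjusted p = 0.00296 to 0.126 in limma), and was -0.61 without g3_4 array 1. None of the 6 lymphotoxin genes differed between the clones by the test. Groups of 3 arrays were not tested for outlying samples.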

How the results depend on the processing

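The fall of LTA passed under all alternatives run, between -3.92 and -3.49 in g2_1 and between -4.47 and -4.14 in g3_4. TNFRSF14 passed in g2_1 under all of them (-0.57 to -0.39, adjusted p = 0.00636 to 0.0446 in limma). LTB passed under none (adjusted p = 0.0764 to 0.932 in limma). Of 450 values of the 6 genes under an alternative, 435 kept direction and call, 10 newly passed and 5 changed sign. The replicate block brought TNFSF14 past the threshold in g2_1 (-0.75, adjusted p = 0.0198 in limma) and with the clones averaged (-0.66, adjusted p = 0.0150 in limma), and TNFRSF14 in g3_4 (-0.33, adjusted p = 0.0438 in limma), and changed no other call of the 6 genes. TNFRSF14 also passed in g3_4 with rows under the median level left out (-0.33, adjusted p = 0.0475 in limma, fewer rows tested) and with array weights (-0.35, adjusted p = 0.0379 in limma). Median centring brought TNFRSF1A past it in g2_1 (0.50) and with the clones averaged (0.41, adjusted p = 0.0200 in limma). Leaving out 1 array moved TNFRSF1A in g2_1 between 0.27 and 0.48, TNFSF14 between -0.97 and -0.38 in g2_1 and between -0.88 and -0.29 with the clones averaged, where it passed without control array 2 (adjusted p = 0.0372 in limma). LTBR changed sign in g2_1 after centring (0.063) and with array weights (0.029), and ran from -0.21 to 0.048 with 1 array left out, and from -0.075 to 0.185 with the clones averaged.

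Of 2547 values of the other named genes under an alternative, 105 lost the call, 9 newly passed and 14 changed sign. The changes of sign were in values near 0 of 3 genes. BTLA in g2_1 was 0.107 after centring, 0.059 with array weights and 0.145 without the arrays numbered 1, and up to 0.092 with 1 array left out (lowest -0.103), and -0.022 to 0.103 with the clones averaged. LST1 after centring was 0.097 in g2_1, 0.077 in g3_4 and 0.087 with the clones averaged, and -0.072 to 0.013 in g2_1 and -0.080 to 0.005 averaged with 1 array left out. NFKBIL1 in g3_4 was 0.030 after centring. The count of calls between the clones was 11, against 7 above the median level, 50 with array weights, 32 with only both clones in the fit, 27 with the replicate block, 29 without the arrays numbered 1 and 4 to 45 with 1 array left out (45 without control array 1). Counts against control stayed within 1.5 times, at 2078 to 3118 in g2_1 and 2119 to 3148 in g3_4 with 1 array left out, against 2979 and 2983. The cause of these moves was not tested. A fit of only the groups compared does not differ from the main one for the clones averaged and was not run. Without detection calls, the signal over background that limits dim genes such as BTLA is unknown.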

Other observations

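Among the neighbours of TNFSF14 on chromosome 19, SLC25A23, a mitochondrial carrier gene, rose by 0.94 in g2_1 and by 0.997 in g3_4 on the log2 scale, ALKBH7 by 0.62 and 0.73, and DENND1C by 0.59 and 0.65, while TRIP10 fell by 0.41 and 0.58. Without control array 1, ALKBH7 was at 0.40 in g2_1 and 0.52 in g3_4. SLC25A23 was 9.59, 9.86 and 9.84 in g2_1, 9.82, 9.76 and 9.89 in g3_4, and 9.06, 8.84 and 8.58 in control cells. All its clone arrays lay above all control arrays, as for 9.70% of all transcript clusters. Its call was kept with any 1 array left out, while those of ALKBH7, DENND1C and TRIP10 were each lost without at least 1 array (adjusted p up to 0.110 for ALKBH7 in limma). Beside TNFRSF14, the 1 neighbour that rose was WRAP73 (0.56 in g2_1 and 0.50 in g3_4), whose call was lost without g3_4 array 1 (adjusted p = 0.0504 in limma). These genes were named after their values were seen.

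Of 8 markers of Hodgkin and Reed-Sternberg cells, 1 rose and 2 fell in both clones, where 4.48% of all transcript clusters rose and 6.97% fell. TNFRSF8 rose by 0.79 in g2_1 and by 0.70 in g3_4. CCL22, a chemokine that attracts regulatory T cells, averaged 5.06 in g2_1, 5.22 in g3_4 and 6.32 in control cells. PAX5, a B cell transcription factor gene, averaged 6.52, 6.48 and 7.31 in the same groups. Of 5 measured T cell markers 1 rose (CD2), of 6 monocyte and macrophage markers 0 passed in both clones, and of 5 measured stromal markers 0 did. The summed level of the T cell list on the log2 scale was 9.51 to 9.70 in g2_1, 9.47 to 9.57 in g3_4 and 7.76 to 8.63 in control cells, with CD3D, CD3E, CD3G and CD8A averaging at most 4.88 in any group.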
